A study of Mus musculus with 3 samples.

Results

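The genes described here are regulators and classical markers of epithelial-mesenchymal transition (EMT), measured in mouse liver that expressed human YAP. They are 10 of the 20284 genes that could be named on the array. Cdh1 is the epithelial member. The mesenchymal members are the cadherin Cdh2, the genes Vim, Fn1 and S100a4, and the transcription factors Snai1, Snai2, Zeb1, Zeb2 and Twist1. The genes were taken by name and not by a threshold on their values, and all 13 of their probes are reported. Liver RNA came from c57BL6/J mice 2 days after delivery of human YAP (hYAP) as wild type (WT), as the mutant 1SA or as the mutant 2SA, with 1 array for each form. Per the methods of the study, plasmids were injected under pressure into the tail vein of male mice of 8 weeks, YAP was driven by a hepatocyte-specific enhancer and albumin promoter, and only a part of the hepatocytes took it up. All 3 livers therefore had the injection and human YAP in common, and no liver without YAP is part of the comparisons. The labels do not say whether the RNA on an array was from 1 mouse or from several, and the WT library is numbered 2 in its title. With 1 array per group there was no replicate check, and no test between groups was run.

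In EMT an epithelial cell gives up E-cadherin junctions and takes on a mesenchymal cytoskeleton, matrix and motility. Factors of the Snail, Zeb and Twist families bind E-box sequences and repress Cdh1, and a gain of N-cadherin for E-cadherin is called the cadherin switch. YAP, the coactivator held back by the Hippo pathway, acts through TEAD factors. Hepatocytes are unusual epithelial cells in that they carry both cadherins and secrete fibronectin, whereas vimentin in liver marks stellate, endothelial, immune and other non-hepatocyte cells.

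Neither cadherin reached a 2-fold difference between any of the 3 livers, and 2 mesenchymal members measured on all arrays, S100a4 and Snai2, did. Over all genes, 0.543% to 2.47% passed 2-fold, depending on the comparison and the direction. S100a4 was lowest in 1SA and highest in 2SA on both of its probes. The brighter probe was 2.08-fold lower and 2.86-fold higher than in WT, and the other was 1.52-fold lower and 2.60-fold higher. Snai2 was 2.01-fold lower in 1SA than in WT, which fell short of 2-fold under some other scalings, and close to WT in 2SA. Vim was also lowest in 1SA, 1.54-fold lower than in WT, and Snai1 was highest in WT, with neither at 2-fold. Cdh1, Cdh2, Fn1 and Zeb1 differed by at most 0.16 on the log2 scale between any of the livers.

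The level of a probe is given as its deposited intensity, the brightness of its spot on a linear scale. A difference is the difference of log2 intensities once every array had been divided by its 75th percentile, which was 290.8 in WT, 275.7 in 1SA and 319.5 in 2SA. A probe counts as measured on an array when the scanner software marked it well above background, which held for 28972, 29705 and 30784 of 55681 probes. The only repeat measurement was between spots of 1 array. Unless stated otherwise, the error beside a difference is the SD over repeated spots of other probes at like signal, combined over both arrays. It was 0.10 for a typical probe and does not cover the spread between mice. The error model of the scanner software was wider, at 0.20 to 0.24 for the measured members. The levels of different probes are not set against each other, because probes bind with different strength.

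**Figure D1:**
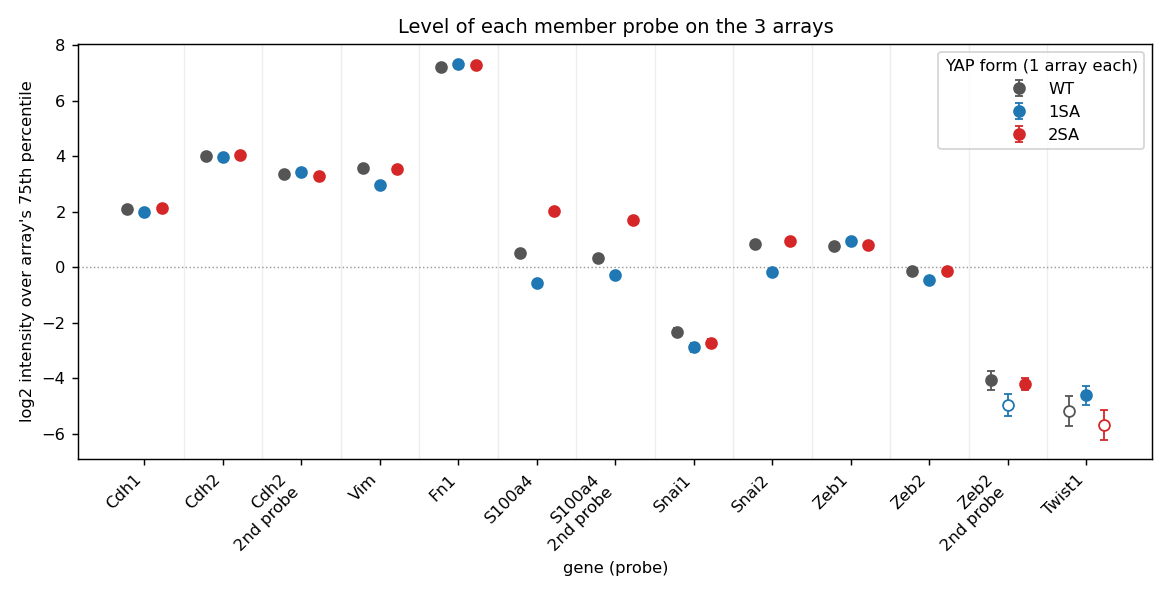
Normalised log2 intensity (vertical axis, relative to the 75th percentile of the array) of each of the 13 member probes in WT, 1SA and 2SA, 1 array each, with bars for the SD over repeated spots (10 spots for Cdh1, probes of like signal for the others) and open symbols for values not well above background. S100a4 and Snai2 dip in 1SA, S100a4 lies above WT in 2SA, and both cadherins and Fn1 run level.

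Cdh1 encodes E-cadherin, the junction protein whose loss defines the epithelial side of EMT. Its probe was the only one of the members with repeated spots, 10 on each array. The mean intensity was 1256 in WT, 1086 in 1SA and 1386 in 2SA, with an SD over spots of 0.09, 0.07 and 0.07 on the log2 scale. Scaled to the arrays, Cdh1 was lower in 1SA than in WT by 0.13 ± 0.04 (log2, SE over spots, n = 10 spots per array). Between 2SA and WT the difference was 0.01 ± 0.04. Against 1SA, 2SA was 0.14 ± 0.03 higher. The level was thus lowest in 1SA, and the differences of 1SA from the other livers were larger than the error between spots and smaller than the 0.20 of the scanner's error model. WT and 2SA differed by less than either error.

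Cdh2 encodes N-cadherin, the mesenchymal partner in the cadherin switch and a normal junction protein of hepatocytes. Its brighter probe read 4671 in WT, 4352 in 1SA and 5320 in 2SA. It was -0.03 ± 0.07 in 1SA and 0.05 ± 0.07 in 2SA relative to WT, and 0.08 ± 0.07 between the mutants. The other Cdh2 probe read 2993, 2994 and 3098 in the same order, with differences of 0.08 ± 0.08, -0.09 ± 0.08 and -0.16 ± 0.08. The probes gave opposite signs in all 3 comparisons, so no direction is given for Cdh2. The difference of Cdh2 less that of Cdh1, the quantity in which a cadherin switch would show, was 0.11 in 1SA and 0.05 in 2SA relative to WT and -0.06 in 2SA relative to 1SA, from the brighter Cdh2 probe. From the other probe it was 0.21, -0.09 and -0.30, so the sign in 2SA against WT depended on the probe. Each value carries the errors of both genes, and the error of the scanner's model was 0.20 for either gene alone. The values from the brighter probe were all smaller than that.

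The mesenchymal members are first shown with their promoters. Windows of 250 bases before a start site were taken from RefSeq, build GRCm38.p6. With a chromosome set aside for the members, 8 windows for 5 of the 10 members were used. The 3 windows below belong to the members with a window and a representing probe below -0.5 in 1SA against WT. Each runs 5′ to 3′ on the strand of the gene, which is the plus strand for all 3, and ends just before the start site. The positions are chr3:90603520-90603769 for S100a4, chr2:13574061-13574310 for Vim and chr2:167537945-167538194 for Snai1. Capitals mark matches to any of the 4 motifs that were searched on both strands.
S100a4: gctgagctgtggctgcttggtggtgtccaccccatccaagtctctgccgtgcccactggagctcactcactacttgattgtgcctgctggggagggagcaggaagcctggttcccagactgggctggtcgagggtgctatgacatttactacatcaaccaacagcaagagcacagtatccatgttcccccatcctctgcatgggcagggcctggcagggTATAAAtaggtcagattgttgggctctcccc
Vim: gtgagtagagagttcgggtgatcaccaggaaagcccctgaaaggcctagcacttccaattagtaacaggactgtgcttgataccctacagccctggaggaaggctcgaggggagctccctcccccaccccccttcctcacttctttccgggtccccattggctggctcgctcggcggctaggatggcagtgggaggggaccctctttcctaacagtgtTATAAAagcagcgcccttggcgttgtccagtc
Snai1: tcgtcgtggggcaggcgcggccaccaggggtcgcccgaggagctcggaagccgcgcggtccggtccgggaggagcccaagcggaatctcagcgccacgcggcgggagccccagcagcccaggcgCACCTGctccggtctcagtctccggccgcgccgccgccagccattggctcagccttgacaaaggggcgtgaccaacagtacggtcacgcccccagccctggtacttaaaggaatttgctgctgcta

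The motifs were GGAATG, the core bound by TEAD factors, CAGGTG, the E-box bound by Snail and Zeb factors, TGANTCA, the site of AP-1, and TATAAA, the TATA box. They were held by 12.6%, 17.2%, 6.75% and 12.4% of all 32851 promoter windows of this length. S100a4 and Vim each held a TATA box match, with its first base at -31 and -32 relative to the start site. Snai1 held an E-box match that began at -126, read as CACCTG. None of the 3 windows held the TEAD or the AP-1 letters, and no matches overlapped. Among the other windows, Twist1 held a match to the TATA letters that began at -126. Of the 4 windows of Zeb2, 1 held 1 TEAD and 2 AP-1 matches. The matches describe the letters of these windows and are not measurements of binding.

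S100a4 encodes a calcium-binding protein, also named fibroblast-specific protein, which in injured liver is also made by a population of macrophages. Its brighter probe read 412 in WT, 188 in 1SA and 1295 in 2SA. The other probe read 368, 229 and 1048. Both probes had the same order, with 1SA lowest and 2SA highest. Against WT the brighter probe was -1.05 ± 0.11 in 1SA and 1.52 ± 0.09 in 2SA. The other probe was -0.60 ± 0.11 and 1.38 ± 0.09. Between the mutants S100a4 was higher in 2SA by 2.57 ± 0.10 (5.94-fold) on the brighter probe and by 1.98 ± 0.10 (3.95-fold) on the other. The brighter probe ranked 73 from the top of 28290 probes in 2SA against WT, 27 from the top of 28851 in 2SA against 1SA and 233 from the bottom of 28032 in 1SA against WT. The excess in 2SA passed 2-fold on both probes. The deficit in 1SA passed 2-fold on the brighter probe only, and it was -0.83 when both probes were averaged and -0.77 with normexp background correction.

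Vim encodes vimentin, the intermediate filament protein of mesenchymal cells. Its intensity was 3466 in WT, 2133 in 1SA and 3742 in 2SA. Vim was -0.62 ± 0.08 in 1SA against WT, and 0.60 ± 0.08 in 2SA against 1SA. Between 2SA and WT it was -0.03 ± 0.08, a value whose sign turned under other scalings. The low reading in 1SA stood 981 from the bottom of 28032 probes. It was larger than the error between spots and did not reach 2-fold.

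Fn1 encodes fibronectin, a matrix protein and a mesenchymal marker that hepatocytes also secrete into plasma. Its intensity was 42621 in WT, 43944 in 1SA and 49174 in 2SA. Relative to WT it was 0.12 ± 0.06 in 1SA and 0.07 ± 0.06 in 2SA, and between the mutants 2SA was -0.05 ± 0.05. None exceeded the 0.20 of the scanner's error model, and the sign of the last one turned under other scalings. Fn1 thus did not share the low reading of S100a4 and Vim in 1SA.

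**Figure D2:**
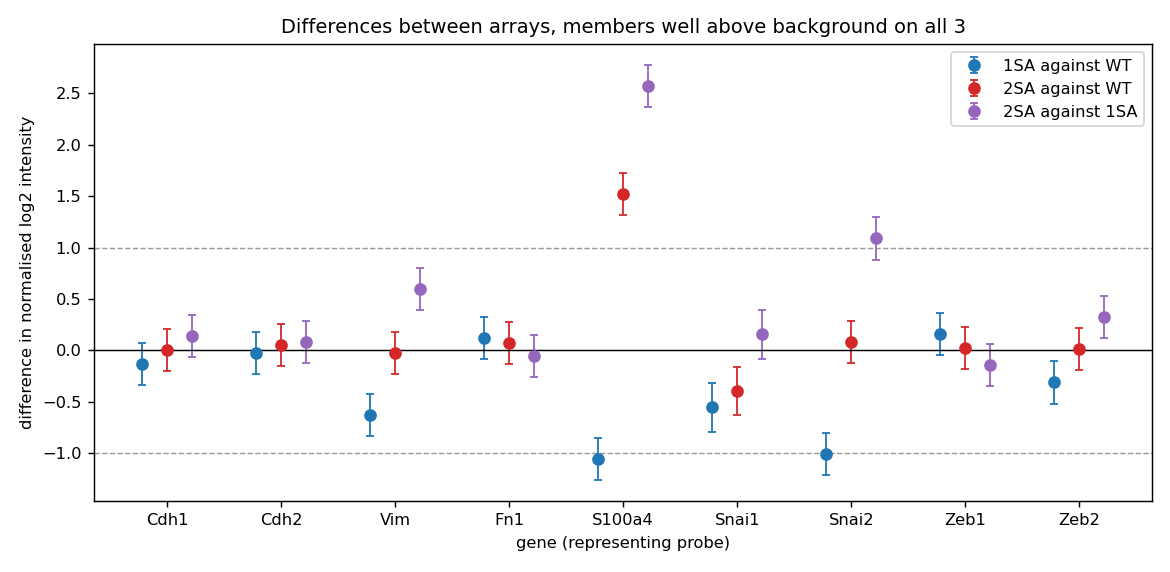
Difference in normalised log2 intensity (axis) of the representing probe of the 9 members measured on all arrays, for each mutant against WT and for 2SA against 1SA, with bars for the error of the scanner's model and dashed lines at 2-fold. S100a4 lies at -1.05, 1.52 and 2.57, Snai2 at -1.004, 0.08 and 1.09, and Cdh1, Cdh2, Fn1 and Zeb1 lie close to 0 throughout.

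Snai2 encodes Slug, a Snail family repressor. Its intensity was 523 in WT, 247 in 1SA and 609 in 2SA. Snai2 was -1.004 ± 0.10 in 1SA against WT, a value just past 2-fold that ranked 270 from the bottom of 28032 probes. It fell short of 2-fold with quantile normalisation, at -0.99, with scaling to the array median, at -0.97, and with normexp, at -0.85. Between 2SA and WT the difference was 0.08 ± 0.09. Against 1SA, 2SA was 1.09 ± 0.10 higher, 474 from the top of 28851 probes, and 0.97 with normexp. The liver of 1SA was therefore the low one and WT and 2SA differed by less than the error between spots.

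Snai1 encodes Snail, a zinc finger repressor of Cdh1. Its probe was dim, with an intensity of 57.9 in WT, 37.4 in 1SA and 48.4 in 2SA, but well above background on all arrays. The differences were -0.55 ± 0.21 in 1SA and -0.40 ± 0.20 in 2SA relative to WT, so WT was the highest of the 3 livers. Between the mutants it was 0.16 ± 0.21, within the error. With normexp Snai1 was -0.19 in 1SA and -0.35 in 2SA relative to WT, and -0.16 between the mutants, where the sign turned.

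Zeb1 and Zeb2 encode zinc finger repressors of Cdh1 and are read out by 1 and 2 probes. Zeb1 had an intensity of 495 in WT, 524 in 1SA and 551 in 2SA. Its differences were 0.16 ± 0.09 in 1SA and 0.02 ± 0.10 in 2SA relative to WT, and -0.14 ± 0.09 between the mutants. The Zeb1 value in 1SA was thus slightly above the others, by less than the scanner's error of 0.20. The brighter probe of Zeb2 read 263 in WT, 201 in 1SA and 291 in 2SA. It was -0.31 ± 0.11 in 1SA against WT and 0.32 ± 0.11 in 2SA against 1SA, and 0.01 ± 0.11 between 2SA and WT. The dim probe of Zeb2 read 17.2 in WT, 8.81 in 1SA and 17.2 in 2SA and was not well above background in 1SA. As bounds, its level was at least 1.59-fold higher in WT and at least 1.44-fold higher in 2SA than in 1SA. These bounds, 0.67 and 0.53 on the log2 scale, were set by the lowest signal that counted as measured on the 1SA array. The errors between spots were 0.52 and 0.46, so the bounds are not firm. Both Zeb2 probes thus read lowest in 1SA, the dim one with little margin over its error.

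Twist1 encodes a basic helix-loop-helix factor that binds E-boxes. Its intensity was 8.08 in WT, 11.3 in 1SA and 6.23 in 2SA, and the probe was well above background in 1SA only. For 1SA against WT no fold is given, since the lowest signal that counted as measured in WT was above the 1SA value. Between 2SA and WT neither reading counted as measured. Twist1 read 2.10-fold higher in 1SA than in 2SA. This fold is taken against the dim 2SA reading itself, which lay above the lowest signal that counted as measured there. It is therefore not a lower limit, and it is not firm given the error below. Repeated spots at such dim levels had an SD of 0.54 in WT, 0.34 in 1SA and 0.55 in 2SA on the log2 scale. The 2SA reading was -1.07 relative to 1SA, with an error of 0.65 from this source.

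The 8 mesenchymal members measured on all 3 arrays had a median of -0.43 in 1SA against WT, beside -0.00 over all 13626 genes. Leaving out Cdh2, whose probes disagreed in sign, 5 of 7 were lower and 2 higher. S100a4 and Snai2 were at least 2-fold lower, and 0 members were higher by as much. Over all genes, 1.14% were lower and 0.727% higher by 2-fold or more in this comparison. In 2SA against WT the median of the mesenchymal members was 0.04, beside -0.03 over all genes. There 1 member, S100a4, was at least 2-fold higher and 0 lower, beside 1.12% and 0.543% of all genes. Between 2SA and 1SA the median was 0.24, beside -0.03, with S100a4 and Snai2 at least 2-fold higher and 0 lower, beside 2.47% and 1.12% of all genes. Both comparisons with WT use the same WT array, and all 3 comparisons come from 3 arrays.

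Counted by probes, 2 of the 11 member probes measured in 1SA and WT were at least 2-fold lower, the brighter S100a4 probe and the Snai2 probe, and 0 were higher. The shares over all probes were 0.974% lower and 0.746% higher. In 2SA against WT both S100a4 probes were among the 12 measured and at least 2-fold higher, and 0 were lower, beside 0.923% higher and 0.732% lower over all probes. In 2SA against 1SA both S100a4 probes and the Snai2 probe, 3 of 11, were at least 2-fold higher, and 0 were lower, beside 1.89% and 1.27%.

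**Figure D3:**
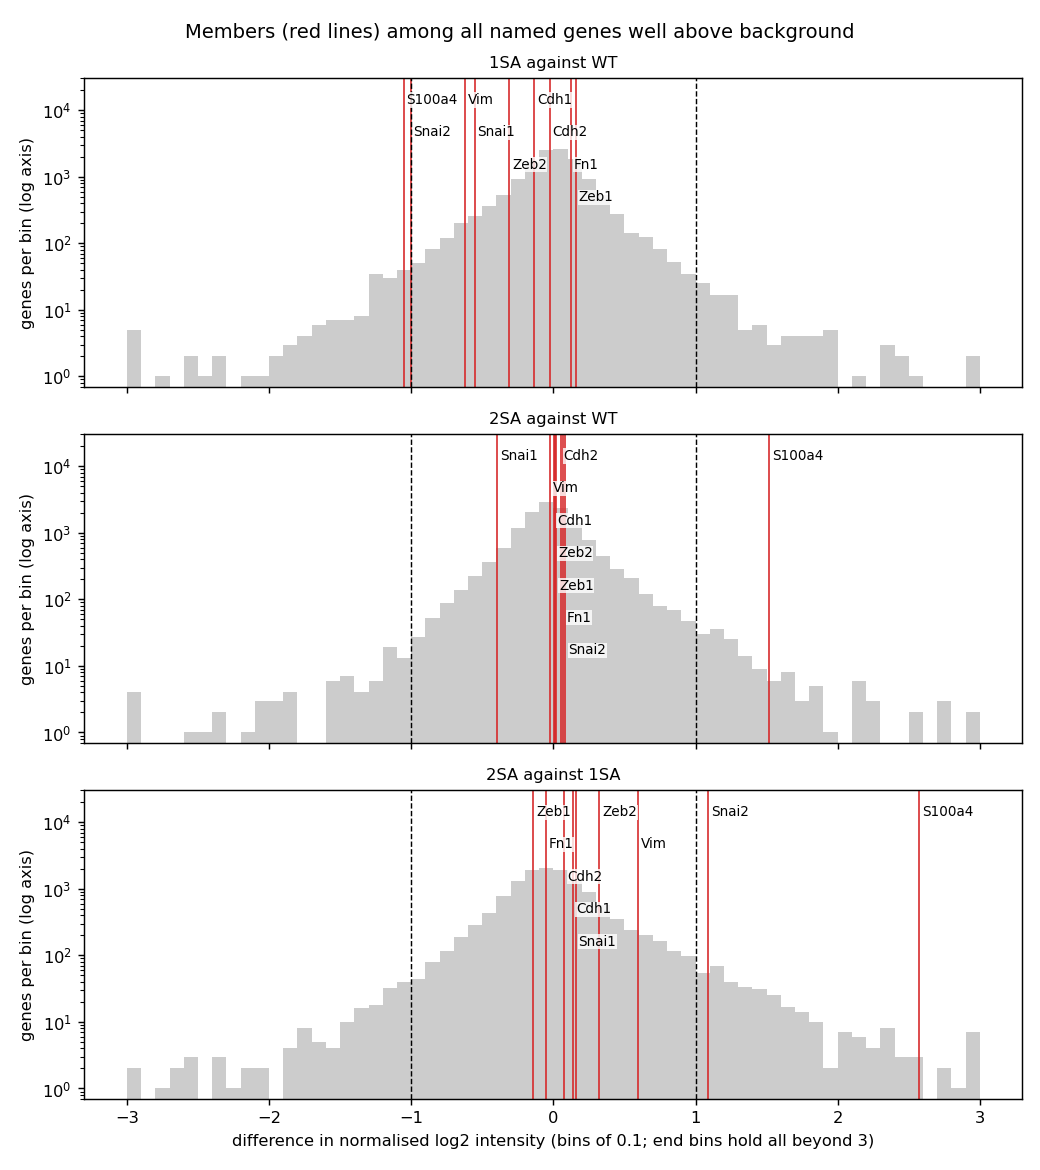
Number of genes (vertical axis, log scale) by difference in normalised log2 intensity (horizontal axis, bins of 0.1, end bins holding all values beyond 3) over the 13626 genes measured on all arrays, with red lines at the measured members and dashed lines at 2-fold. S100a4 stands in the lower flank in 1SA against WT, at -1.05, and in the upper flank in 2SA against WT, at 1.52, where 7 of the other members lie between -0.03 and 0.08.

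Other genes of the same processes were read from 5 lists to place the members. Over all 13626 genes the median was -0.00 in 1SA and -0.03 in 2SA against WT, and -0.03 in 2SA against 1SA. More of all genes were thus lower than higher in each comparison. The counts of lower and higher genes in these lists and in the cell type markers are to be read beside this. Of 10 other cadherins and catenins, the partners of Cdh1 and Cdh2 at the junction, 8 were measured and 0 reached 2-fold in any comparison. Their medians were -0.09 in 1SA and 0.02 in 2SA against WT, and 0.11 in 2SA against 1SA. The widest was Jup, plakoglobin, at 0.28 in 2SA against WT.

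Of 20 other epithelial genes, 15 were measured, and 11 of these were lower in 1SA than in WT, with a median of -0.19. In 2SA against WT the median was -0.06 and between the mutants 0.09. Only Grhl1, a grainyhead-like epithelial transcription factor, reached 2-fold. It read 347 in WT, 33.0 in 1SA and 40.6 in 2SA, which gave -3.32 and -3.23 against WT. Epcam, an adhesion protein of bile duct cells, was dim, at 32.4 in WT, 16.5 in 1SA and 34.2 in 2SA. It was -0.90 in 1SA and -0.06 in 2SA against WT. Krt19, a keratin of the same cells, read 134, 71.9 and 140, which was -0.82 and -0.08. Epcam and Krt19 shared with S100a4, Snai2 and Vim the low reading in 1SA.

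Of 20 other mesenchymal genes, 17 were measured, and 16 were lower in 1SA than in WT, with a median of -0.31. Acta2, smooth muscle actin, read 1121 in WT, 442 in 1SA and 865 in 2SA, which was -1.27 and -0.51 against WT. Timp1, an inhibitor of matrix proteases, read 185, 83.4 and 178, which was -1.07 and -0.19. These were the only 2 of the list that reached 2-fold, both lower in 1SA. In 2SA against WT 14 of 17 were lower, with a median of -0.22, so the excess of S100a4 in 2SA was not shared by the list. Between the mutants 9 were higher and 8 lower in 2SA, with a median of 0.04.

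Of 13 other transcription factors tied to EMT, only 6 were measured, and 0 reached 2-fold. Id1 and Id3, inhibitors of basic helix-loop-helix factors, went apart, at -0.70 and 0.36 in 1SA and 0.23 and -0.56 in 2SA against WT. The medians were -0.05, -0.00 and 0.05 in the order of comparisons used above. All 13 genes of TGF beta signalling, a main inducer of EMT, were measured and 0 reached 2-fold, with medians of 0.00, -0.17 and -0.03. The ligand Tgfb1 was -0.51 in 1SA and 0.42 in 2SA against WT, and the inhibitor Smad7 was 0.34 and -0.60.

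**Figure D4:**
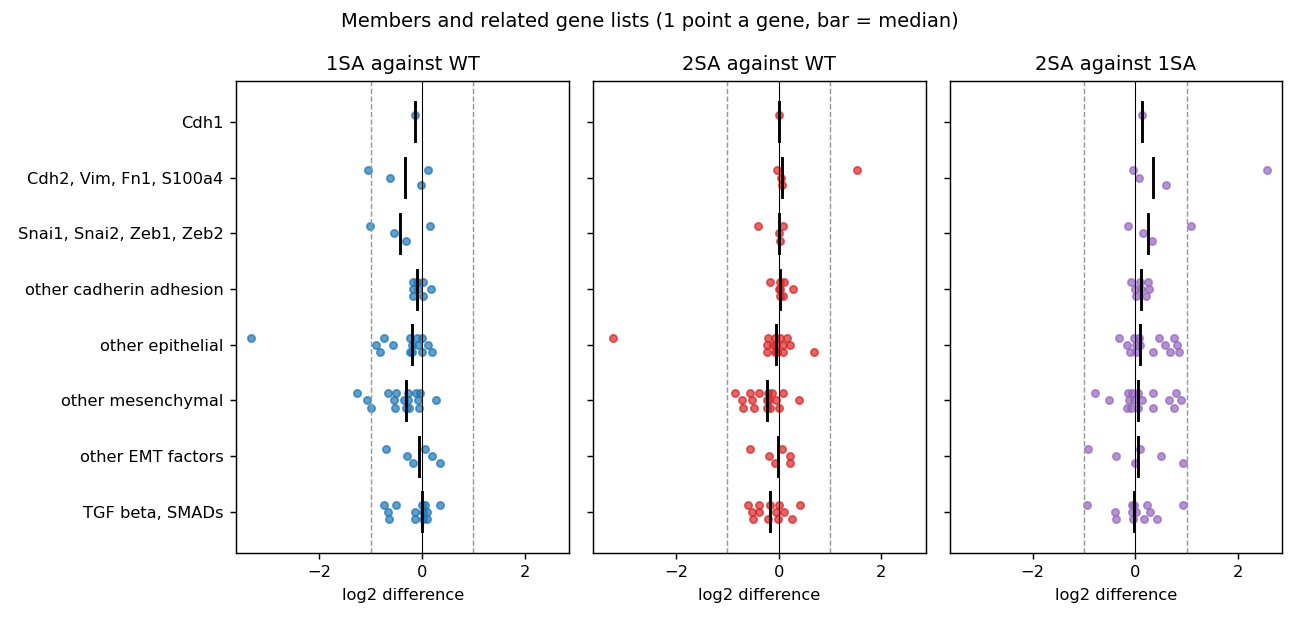
Difference in normalised log2 intensity (axis) of each measured gene of the member groups and of the 5 further lists, in the 3 comparisons, with a bar at the median of each list. Other mesenchymal genes sit mostly below 0 in 1SA against WT, with a median of -0.31, and other cadherin genes stay near 0.

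The array reads RNA of the whole liver, in which fewer cells of a type and less RNA per cell cannot be told apart. All 10 hepatocyte markers were measured on every array, and their summed level, in units of the 75th percentile of the array, was 5109 in WT, 5242 in 1SA and 4457 in 2SA. Markers of monocytes and infiltrating macrophages were, like S100a4, Snai2 and Vim, lowest in 1SA. Their sum over 9 of 10 markers was 78.5 in WT, 46.3 in 1SA and 90.9 in 2SA, and Lgals3 alone gave 53.7, 24.8 and 61.3 of it. In 1SA against WT 7 of these 9 were lower, with a median of -0.58, and in 2SA against WT 7 were higher, with a median of 0.44. Chil3 was -1.13 and 1.24 and Cx3cr1 -0.58 and 1.20, whereas Ccr2, the receptor that defines recruited monocytes, was 2.33 and 0.85. Bile duct markers summed to 13.4, 4.57 and 11.1 over 7 of 10, most of it Spp1. In this list 6 of 7 were lower in 1SA than in WT. Epcam, Krt19 and Krt7 of this list are also among the other epithelial genes above, and Sox9 is among the other EMT factors. The counts of these lists are therefore not separate evidence.

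Markers of stellate cells and fibroblasts did not follow S100a4 and Vim. Their sum over 8 of 10 was 28.3 in WT, 29.6 in 1SA and 20.4 in 2SA, most of it Dcn. Hhip and Reln were not measured, and 0 of 8 were higher in 2SA than in WT. Kupffer cell markers summed to 247, 184 and 139 over all 10, of which Cd5l alone gave 115, 86.1 and 64.4. The Kupffer medians against WT were -0.33 in 1SA and -0.86 in 2SA. Sinusoidal endothelial markers summed to 109, 112 and 92.5 over all 10. Against WT, 6 of these 10 were lower in 1SA and 7 in 2SA, with medians of -0.08 and -0.12. Lymphocyte markers summed to 49.7, 44.5 and 39.1 over 7 of 10, most of it Cd4, with 39.6, 34.4 and 29.1. The lymphocyte list did not share this fall. Against WT, 5 of its 7 differences were positive for 1SA and 4 for 2SA, with a median of 0.03 in each. The part of any of these cell types in the differences of S100a4, Snai2 and Vim was not tested.

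**Figure D5:**
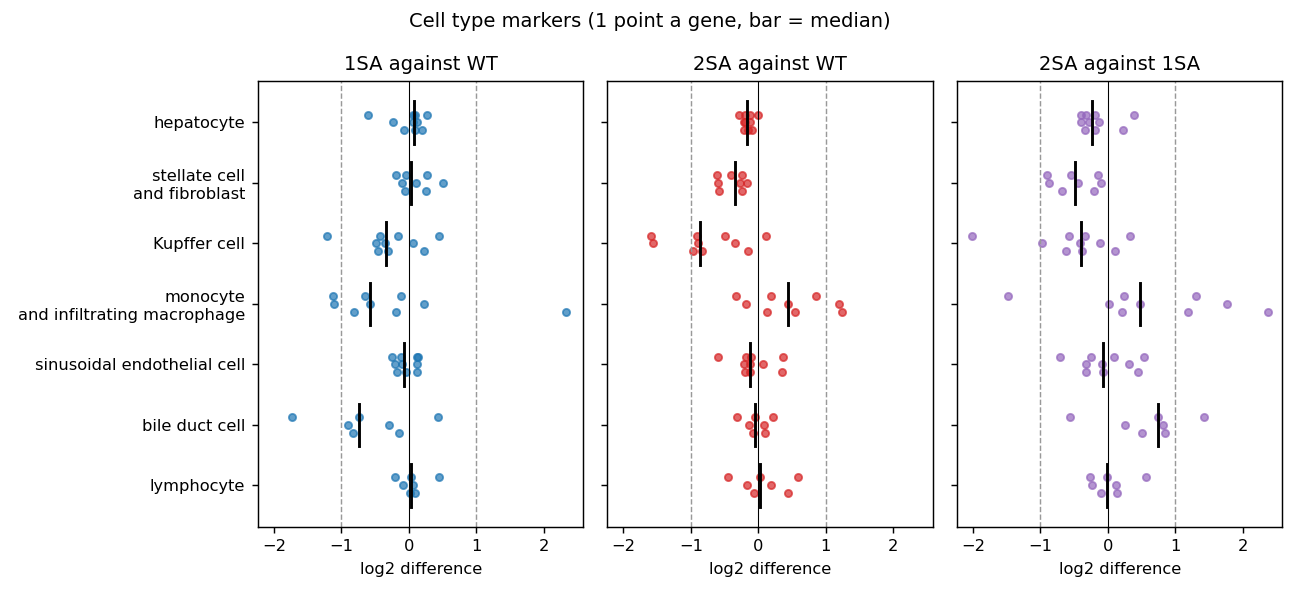
Difference in normalised log2 intensity (axis) of each measured marker of 7 liver cell types in the 3 comparisons, with a bar at the median of each list. Monocyte and macrophage markers have medians of -0.58 in 1SA and 0.44 in 2SA against WT, and stellate cell markers 0.03 and -0.34.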

How the data were processed

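The authors hybridised Cy3-labelled liver RNA to 1-colour Agilent arrays of 3 livers, 1 array per group, all on 1 slide. The deposited intensity of a spot, per the file headers from Feature Extraction 10.10.1.1 with probes placed on build mm9, is linear and background-subtracted, with no scaling from array to array. The authors' series matrix holds the same intensity times 1 constant per array (3.02, 3.08 and 2.81) and served as an alternative. Of 59305 non-control spots per array, 181, 148 and 182 marked as outliers were left out, and 0 were saturated. Spots of a probe were averaged on the log2 scale and the log2 75th percentile of the array was subtracted. A probe was measured where at least 50% of its spots were well above background. RefSeq accessions matched 26762 probes to symbols of a GRCm38.p6 gene table, used for names only. For each gene the brightest of the probes measured in all 3 livers was used, or the brightest of any where none was.

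The text names all members and, of each further list, at most the 3 genes with the largest difference, besides markers that define a cell type. Members and lists were chosen with earlier results of these data known. Differences were called at 2-fold, without a test. Where a probe was measured on 1 side only, the fold is a bound against the higher of the dim value and the lowest measured signal on that array. The number of arrays limits the precision, and no interval between mice can be given. Alternatives were quantile normalisation, the array median, normexp with an offset of 50 (planned on mean and run on median spot brightness, the raw column held), the series matrix, no filter and a stricter filter on dim probes, saturated probes left out, a 3-fold threshold and the mean of a gene's probes. The calculation was tested on simulated data. Python 3.11.15, pandas 2.3.3, numpy 2.4.6, matplotlib 3.10.9, R 4.3.3 and limma 3.58.1 were used.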

Additional observations from a re-analysis of the deposited data

Results flagged for a closer look

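S100a4 differed in opposite directions from WT in the mutants, at -1.05 in 1SA and 1.52 in 2SA on its brighter probe and at -0.60 and 1.38 on the other. The difference between the mutants was 2.57 on the brighter probe. It was not tested, because each group held 1 array.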

How the results depend on the processing

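No paired analysis was possible because there was a single array per group, and for the same reason no replicate could be left out and the slide could not be a block. Of 213 alternative values of the 27 member differences, 199 moved by less than 0.10, the error between spots of a typical probe. The other 14 moved by more, and 0 past 2-fold changed sign. Many of the 199 could not have moved by that much. Leaving out saturated probes or the filter returned the same member values. The array median and the series matrix shifted each comparison by 1 constant smaller than that. Normexp moved 7 of the 27 by more. The sign held under every alternative run for 20 of the 27. The exceptions were Cdh2 in all comparisons, Vim and Zeb2 in 2SA against WT, and Fn1 and Snai1 in 2SA against 1SA. S100a4 ranged from -1.10 to -0.60 in 1SA, from 1.38 to 1.55 in 2SA and from 1.98 to 2.65 between the mutants, with the smallest values from its other probe under the stricter filter. Members at least 2-fold lower in 1SA numbered 1 in place of 2 with quantile normalisation, the array median, the mean of probes and the stricter filter, and 0 with normexp and at 3-fold. At 3-fold, 0 members were called higher in 2SA against WT and 1 in 2SA against 1SA. Normexp also left 1 there, and without a filter 1 member, Twist1, was lower by 2-fold or more in 2SA against 1SA. The median of the EMT factors in 1SA became -0.21 with normexp and -0.31 with no filter or the stricter one, and between the mutants it became 0.0498 with normexp. Other epithelial genes between the mutants gave 0.22 with no filter and -0.0698 with the stricter one, which turned the sign, and other mesenchymal genes in 2SA against WT gave -0.43 with the stricter one. The cause of these moves was not tested.

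Probes at least 2-fold higher and lower in 1SA against WT, 2SA against WT and 2SA against 1SA numbered in turn 83, 66, 94, 48, 216 and 111 with normexp, 2034, 2546, 1832, 2779, 2255 and 2649 when dim probes were kept, 58, 55, 67, 28, 162 and 91 under the stricter filter, and 54, 60, 68, 64, 144 and 91 at 3-fold. The share of higher ones went from 43.4% to 55.7% in 1SA against WT and from 55.8% to 66.2% in 2SA against WT with normexp. Keeping dim probes moved the median over all probes to -0.11, -0.15 and -0.19. Dim probes such as Twist1 and the second Zeb2 probe lie near background, where at most bounds can be given.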

Other observations

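The S100 genes that lie beside S100a4 or share its family were looked at after its values had been seen. Besides S100a4, 17 S100 genes were named and 12 were measured on all arrays. Of these 12, 3 were above WT in 1SA and 7 in 2SA, and 10 were above 1SA in 2SA, with medians of -0.10, 0.08 and 0.23. Over all 13626 genes the medians were -0.00, -0.03 and -0.03. S100a6, calcyclin, read 5458 in WT, 1806 in 1SA and 7131 in 2SA, which was -1.52 in 1SA and 0.25 in 2SA against WT and 1.77 between the mutants. S100a11 read 1817, 1036 and 3384, which was -0.73, 0.76 and 1.49. Both were lowest in 1SA and highest in 2SA, and were picked from the 12 for that. S100a1, S100a3, S100a9 and S100a10 had the same order, with smaller differences between the mutants. S100g was -1.37 in 1SA and -0.38 in 2SA against WT, so WT was highest. S100a8 and S100a9, which mark neutrophils and monocytes, were 0.23 and -0.11 in 1SA and 0.44 and 0.13 in 2SA against WT. S100a3 and S100a5, which neighbour S100a4 in the gene table, were -0.44 and 0.14 in 1SA and 0.15 and -0.05 in 2SA against WT.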
